A study of Mus musculus with 15 samples.

Results

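The genes examined here encode the nuclear subunits and the named assembly factors of respiratory complex I, and were taken as every gene whose annotated symbol starts with Nduf. The array carried 88 probe sets with 1 such symbol, which stood for 44 of the 18193 genes measured. Of these, 34 were subunit genes of complex I, 8 were Ndufaf assembly factor genes, and Ndufa4 with its paralog Ndufa4l2 made up the remaining 2. Another 10 Nduf probe sets carried several gene symbols and were not used.

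The livers were those of C57BL/6J males, which were 7 weeks old at the start and ate their diets for 9 weeks. This inbred line gains weight readily when fat dominates the food. The HFCC, HFDC and HFGC groups ate a high-fat diet (fat gave 60% of the energy) that contained 2% freeze-dried coffee powder, which was caffeinated in HFCC, decaffeinated in HFDC and green, unroasted and caffeinated in HFGC. The HF group received the same high-fat diet without coffee, and the ND group a normal diet in which fat gave 10% of the energy. Each group had 3 mice, chosen at random from a larger diet group, and each mouse had its own Affymetrix Mouse Genome 430 2.0 array. All levels below are log2 of the array intensity. A gene was called when its p from limma, after Benjamini-Hochberg adjustment across the 18193 genes, was under 0.05.

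Complex I takes electrons from NADH, passes them along a chain of iron-sulfur clusters to ubiquinone and pumps protons across the inner mitochondrial membrane. It is shaped like an L. The tip of the arm in the matrix is the NADH-binding N module, below it lies the ubiquinone-binding Q module, and the arm in the membrane holds the proton pumps. Most subunits are encoded in the nucleus and imported, whereas the hydrophobic core of the membrane arm is encoded by mitochondrial DNA. Assembly factors put the modules together and are not part of the finished enzyme. In the liver the complex reoxidises the NADH that fatty acid oxidation and the citric acid cycle produce. Ndufa4 carries the family's name but is known as a subunit of cytochrome c oxidase, and it was kept apart for that reason.

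Of the 34 subunit genes, 7 belonged to the N module, 7 to the Q module and 20 to the membrane arm. As a check of the labelled tissue, 6 hepatocyte markers were listed and all 6 were measured. None of them was called in HF against ND or in any coffee group against HF. Only 2 of the 44 Nduf genes lay below the median level of all genes (6.41), namely Ndufb4, which averaged 3.81 over the 15 arrays and was represented by a dim probe set, and Ndufa4l2. Precision is limited by the 3 arrays in each group, and in whole liver fewer cells of a type and less RNA per cell cannot be told apart.

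A technical measure stood apart in one group. The 3' signal minus the 5' signal of the Gapdh and Actb control probe sets, which rises when RNA is shorter or less completely copied, averaged 1.22 ± 0.17 in HF livers. It averaged 0.93 ± 0.12 in HFCC, 0.93 ± 0.11 in HFDC, 0.82 ± 0.11 in HFGC and 0.88 ± 0.06 in ND livers (SD, n = 3 each). The 3 HF arrays read 1.08, 1.40 and 1.17, and the highest of the others, HFCC replicate 1, read 1.07. With this measure as a covariate in the fit, limma called 14 of all genes in HF against ND and 0 in each coffee group, or the 3 together, against HF. No Nduf gene was called in any of these fits. Every HF array read above every other array, so these fits cannot tell the HF group and this measure apart. Why calls were lost in them was not tested.

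The promoters of the genes on which the results turned are shown so that the letters around the start sites of genes that moved together can be compared. Windows of 300 bases, beginning 250 bases upstream of the annotated start, were taken from RefSeq (GRCm38.p6) for 39 of the 44 genes, which gave 41 windows. Ndufa2, Ndufa4l2, Ndufaf6, Ndufb9 and Ndufs1 are named only. Both strands were searched for 4 short motifs of factors known to act on respiratory genes: NRF1 (GCGCATGCG), ETS (CCGGAAG, the motif of GABP), YY1 (AAGATGGC) and ERR (AAGGTCA). Matches are in capitals below. The NRF1 motif overlaps its own reverse complement, so 1 stretch can be counted on both strands.
Ndufv1, chr19:4012706-4013005, minus strand: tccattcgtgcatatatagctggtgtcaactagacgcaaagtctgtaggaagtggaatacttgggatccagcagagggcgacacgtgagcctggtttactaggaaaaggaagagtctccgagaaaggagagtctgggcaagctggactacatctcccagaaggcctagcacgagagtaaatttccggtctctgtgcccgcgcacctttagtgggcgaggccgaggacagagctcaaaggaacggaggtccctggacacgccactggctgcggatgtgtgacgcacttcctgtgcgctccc
Ndufv3, chr17:31519865-31520164, plus strand: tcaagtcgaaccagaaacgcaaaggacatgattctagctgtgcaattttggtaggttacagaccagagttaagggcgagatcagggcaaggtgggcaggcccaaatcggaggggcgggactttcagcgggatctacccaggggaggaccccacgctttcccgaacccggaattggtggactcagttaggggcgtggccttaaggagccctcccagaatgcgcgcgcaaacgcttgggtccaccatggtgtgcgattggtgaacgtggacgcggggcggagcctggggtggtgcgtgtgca
Ndufs8, chr19:3912725-3913024, minus strand: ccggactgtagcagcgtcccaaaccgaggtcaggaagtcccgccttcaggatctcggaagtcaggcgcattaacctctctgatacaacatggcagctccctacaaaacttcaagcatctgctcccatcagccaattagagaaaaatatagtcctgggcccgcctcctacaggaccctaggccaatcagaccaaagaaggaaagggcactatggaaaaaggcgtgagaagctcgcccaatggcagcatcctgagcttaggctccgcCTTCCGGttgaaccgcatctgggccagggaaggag
Ndufs7, chr10:80249199-80249498, plus strand: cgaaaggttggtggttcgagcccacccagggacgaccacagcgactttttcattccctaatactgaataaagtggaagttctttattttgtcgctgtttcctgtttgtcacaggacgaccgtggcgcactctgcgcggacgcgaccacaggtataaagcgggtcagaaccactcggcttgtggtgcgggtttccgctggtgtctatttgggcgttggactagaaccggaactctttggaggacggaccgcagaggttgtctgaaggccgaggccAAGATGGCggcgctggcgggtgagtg
Ndufc1, chr3:51408906-51409205, minus strand: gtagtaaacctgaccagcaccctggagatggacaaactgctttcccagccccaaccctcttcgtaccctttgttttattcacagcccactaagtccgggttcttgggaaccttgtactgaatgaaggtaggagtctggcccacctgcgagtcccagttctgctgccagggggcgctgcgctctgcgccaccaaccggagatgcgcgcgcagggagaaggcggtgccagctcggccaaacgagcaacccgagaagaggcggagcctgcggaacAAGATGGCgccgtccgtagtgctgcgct
Ndufaf4, chr4:24897833-24898132, plus strand: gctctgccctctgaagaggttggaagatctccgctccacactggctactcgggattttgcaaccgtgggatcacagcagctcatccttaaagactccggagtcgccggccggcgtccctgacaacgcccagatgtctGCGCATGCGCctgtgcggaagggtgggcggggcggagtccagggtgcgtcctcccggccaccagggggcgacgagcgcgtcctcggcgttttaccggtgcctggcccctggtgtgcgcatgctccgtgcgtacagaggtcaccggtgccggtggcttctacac

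Ndufv1 and Ndufv3, the pair called in both HF against ND and coffee against HF, held none of the 4 motifs in these windows. Ndufs8 held the ETS motif 15 bases past its start site, on the other strand. Ndufs7 and Ndufc1, which were lower in the coffee groups than in ND, each held the YY1 motif, 24 and 22 bases past the start. The other subunits called in that comparison did not hold it. Ndufa5 and Ndufa12 held none of the 4 motifs, Ndufa8 held only NRF1 and Ndufb4 only ERR. Across the subunit genes with a window, 6 of 31 (19.4%) held the YY1 motif, against 3.19% of all 27025 genes with a window, and all 6 matches lay between 22 and 38 bases past the start site. The other 4 were in Ndufa3, Ndufa9, Ndufs4 and Ndufb8, none of which was called. The ETS motif was in 12.9% of the subunit genes against 9.93% of all genes, ERR in 9.68% against 5.38%, and NRF1 in 3.23% (Ndufa8) against 1.95%. Of the 7 assembly factor genes with a window, Ndufaf4 and Ndufaf5 held the NRF1 motif and Ndufaf1 and Ndufaf8 the ETS motif, and Ndufaf8 held the YY1 motif as well. A match describes letters in the window and does not show that a factor binds there.

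The first comparison asked what the high-fat diet did to these transcripts. In HF livers the subunit genes moved in both directions. Ndufs8, Ndufv1, Ndufv3 and Ndufa7 were higher than in ND livers by 0.24 to 0.32 on the log2 scale, and Ndufb4, Ndufs1, Ndufab1 and Ndufa12 were lower. Thus 8 of 34 subunit genes were called (23.5%), 4 in each direction, where 13.5% of all genes were called, 8.92% higher and 4.63% lower. A further 11 reached an unadjusted p under 0.05 without passing the adjusted threshold, which brought that count to 19, where 28.8% of all genes had such a p. The median log2 difference of the 34 was 0.015, with 17 above and 17 below 0, against -0.0015 over all genes, of which 50.3% were below 0. The arrays of the 2 groups did not overlap in 20 subunits, 11 with HF above ND and 9 with HF below, where this held for 26.5% of all genes. Most subunits are bright, and bright genes were called more often: among genes at or above the median level, 11 of 33 subunits were called beside 25.3% of all such genes.

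**Figure D1:**
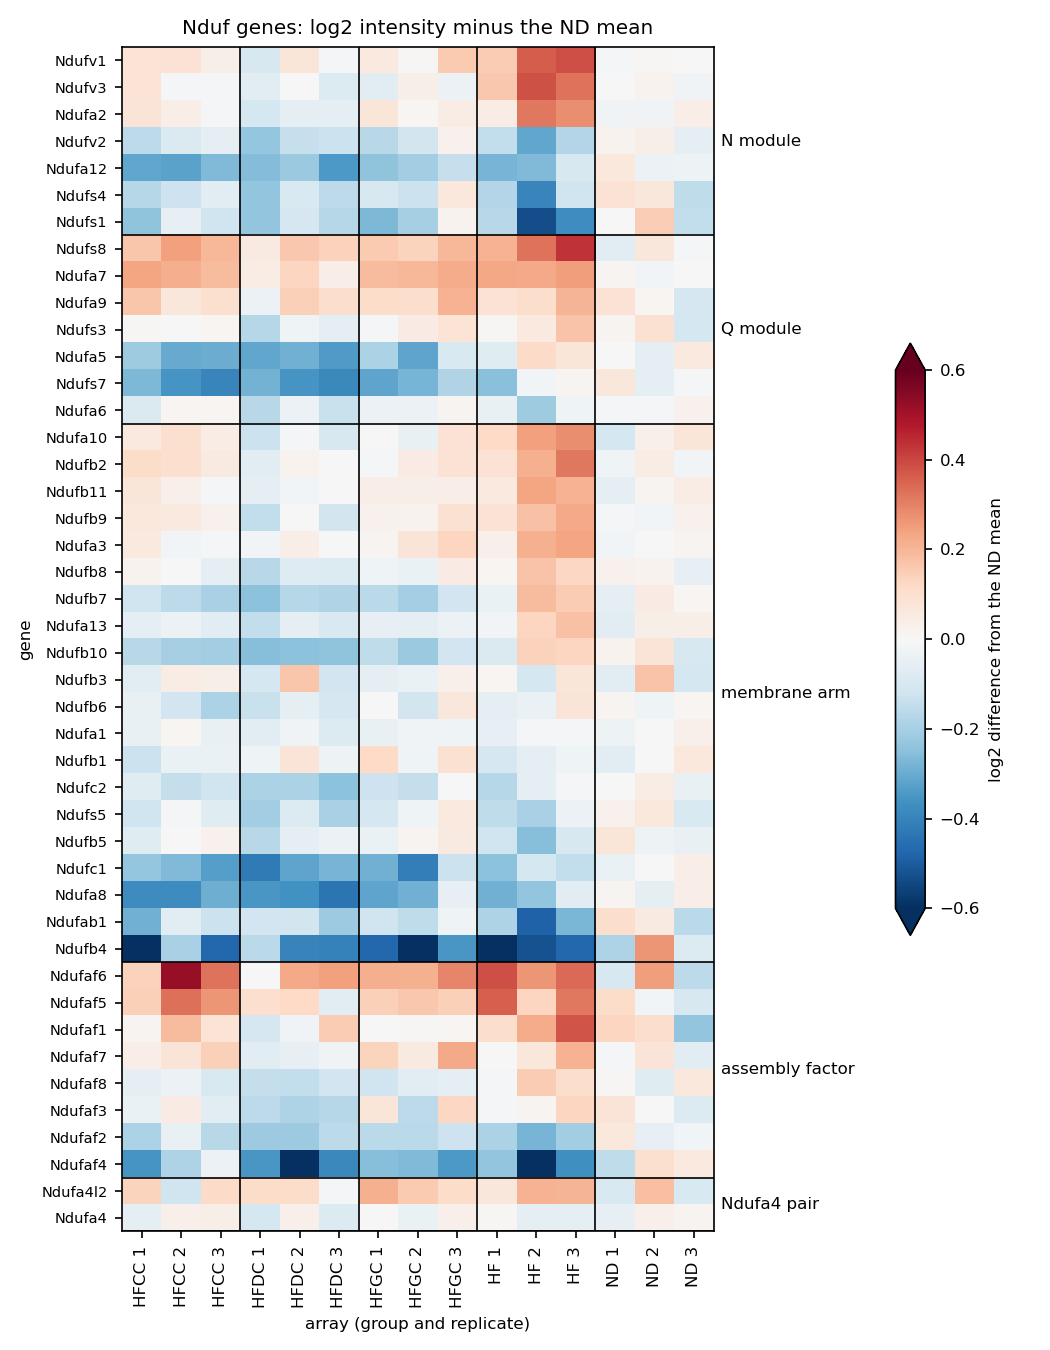
Each row is an Nduf gene, ordered by module and then by its difference in HF against ND, and each column is 1 array, with the colour giving log2 intensity minus the mean of the 3 ND arrays (red higher, blue lower, values past 0.6 in either direction drawn at the end of the scale). Ndufv1, Ndufv3 and Ndufs8 are reddest on HF replicates 2 and 3, and Ndufs7, Ndufa8 and Ndufc1 are blue across most coffee arrays.

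The N module was divided. All 7 of its members had an unadjusted p under 0.05 in HF against ND, and 4 were called, 2 higher and 2 lower. Ndufv1 holds the flavin that accepts electrons from NADH. Its level was 11.55, 11.76 and 11.78 in HF livers and 11.39, 11.40 and 11.39 in ND livers. Every HF array lay above every ND array, by a wide margin on replicates 2 and 3. The log2 difference was 0.30 ± 0.07 (SE, n = 3 each), or 1.23-fold (adjusted p = 0.016, limma).

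Ndufv3, a small accessory subunit that sits beside Ndufv1, followed the same course. Its level was 12.20, 12.42 and 12.36 in HF livers and 12.04, 12.06 and 12.02 in ND livers. The groups did not overlap, and the log2 difference was 0.29 ± 0.07 (adjusted p = 0.013, limma). Ndufs1, the largest subunit of the matrix arm and a carrier of several iron-sulfur clusters, went the other way. It read 10.39, 10.02 and 10.18 in HF livers and 10.55, 10.70 and 10.41 in ND livers. The highest HF array and the lowest ND array almost met, at a log2 difference of -0.36 ± 0.10 (adjusted p = 0.035, limma). Ndufa12, an accessory subunit added late in assembly, had a log2 difference of -0.21 ± 0.07 (adjusted p = 0.048, limma). The other 3 members missed the adjusted threshold, with log2 differences of 0.21 for Ndufa2, -0.21 for Ndufv2 and -0.23 for Ndufs4.

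In the Q module 2 of 7 members were called, both higher. Ndufs8 carries iron-sulfur clusters that lie between the N module and the ubiquinone site. Its level was 12.14, 12.26 and 12.36 in HF livers and 11.87, 12.00 and 11.92 in ND livers. The HF arrays were all above the ND arrays, and the log2 difference of 0.32 ± 0.07 was the largest positive one among the subunits (adjusted p = 0.0089, limma). Ndufa7, an accessory subunit, was even within both groups. It read 11.95, 11.94 and 11.96 in HF livers and 11.73, 11.70 and 11.71 in ND livers. The log2 difference was 0.24 ± 0.05 (adjusted p = 0.012, limma). Ndufs3 is a core subunit of the Q module. The study identified its protein from a gel spot and reported it as higher in HFDC than in HF livers, a comparison given further below. The Ndufs3 transcript read 11.75, 11.80 and 11.92 in HF livers and 11.76, 11.84 and 11.64 in ND livers. Its groups overlapped, and its log2 difference was 0.08 ± 0.07 (adjusted p = 0.50, limma).

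In the membrane arm 2 of 20 members were called (10%), both lower. Ndufab1, the mitochondrial acyl carrier protein, serves mitochondrial fatty acid synthesis as well as complex I. Its level was 11.13, 10.83 and 11.03 in HF livers and 11.42, 11.36 and 11.15 in ND livers. The highest HF array lay just under the lowest ND array, and the log2 difference was -0.31 ± 0.09 (adjusted p = 0.036, limma). The next brightest probe set of Ndufab1 gave -0.07 and did not pass, and with the mean of its probe sets the gene lost its call. Ndufb4 had the largest difference of any member, -0.56 ± 0.13 (adjusted p = 0.013, limma), but at a level where little signal was present. It read 3.50, 3.65 and 3.70 in HF livers and 3.99, 4.44 and 4.09 in ND livers. Ndufa10, an accessory subunit related to nucleoside kinases, read 11.69, 11.82 and 11.85 in HF livers and 11.47, 11.60 and 11.64 in ND livers. All HF arrays lay above the ND arrays, and the log2 difference of 0.21 ± 0.07 missed the threshold (adjusted p = 0.054, limma).

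Among the 8 assembly factors, 3 were called in HF against ND (37.5%), where 13.5% of all genes were called. Ndufaf4 works with Ndufaf3 in building the Q module. It read 10.07, 9.64 and 9.93 in HF livers and 10.15, 10.40 and 10.36 in ND livers. Its log2 difference was -0.42 ± 0.12 (adjusted p = 0.031, limma), and the groups did not overlap. Ndufaf2, a paralog of Ndufa12 that takes its place during assembly, read 8.14, 8.05 and 8.12 in HF livers and 8.39, 8.28 and 8.31 in ND livers. All HF arrays were below the ND arrays, and the difference was -0.23 ± 0.06 (adjusted p = 0.027, limma), beside -0.21 for Ndufa12 itself. Ndufaf5, which modifies Ndufs7 during assembly, was higher in HF. It read 6.78, 6.55 and 6.74 in HF livers and 6.53, 6.41 and 6.33 in ND livers, a log2 difference of 0.27 ± 0.08 (adjusted p = 0.043, limma). Ndufaf1, Ndufaf3, Ndufaf6, Ndufaf7 and Ndufaf8 did not pass, with log2 differences between 0.04 and 0.33. Ndufa4 and Ndufa4l2 did not pass either, at -0.03 and 0.16.

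These calls changed with the arrays that were present and with the covariate, which cannot be told apart from the HF group. In the fit with the 3' minus 5' covariate, 0 of the 44 members were called, 4 subunits had an unadjusted p under 0.05, and 14 of all genes were called. The estimates behaved differently from one gene to the next: Ndufv1 stayed at 0.30, Ndufs8 was 0.36 and Ndufa7 was 0.25, whereas Ndufs1 was -0.03 and Ndufab1 was -0.07. Ndufs8, Ndufa7 and Ndufb4 were called whichever of the 15 arrays was left out. Ndufv1 and Ndufv3 lost the call without HF replicate 2 (adjusted p = 0.069 and 0.061, limma) and without HF replicate 3. Ndufs1 and Ndufab1 lost it without HF replicate 2 or 3 or ND replicate 1 or 2. Ndufa12 kept it only without HF replicate 3, and Ndufaf5 lost it in 10 of the 15 cases. Ndufaf4 lost it in 4 cases (HF replicate 2 or 3, ND replicate 2 or 3) and Ndufaf2 in 3 (HF replicate 2 or 3, ND replicate 1). In total 3 subunits were called without HF replicate 2 (5.44% of all genes), 4 without replicate 3 (6.38%) and 14 without replicate 1 (17.2%).

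**Figure D2:**
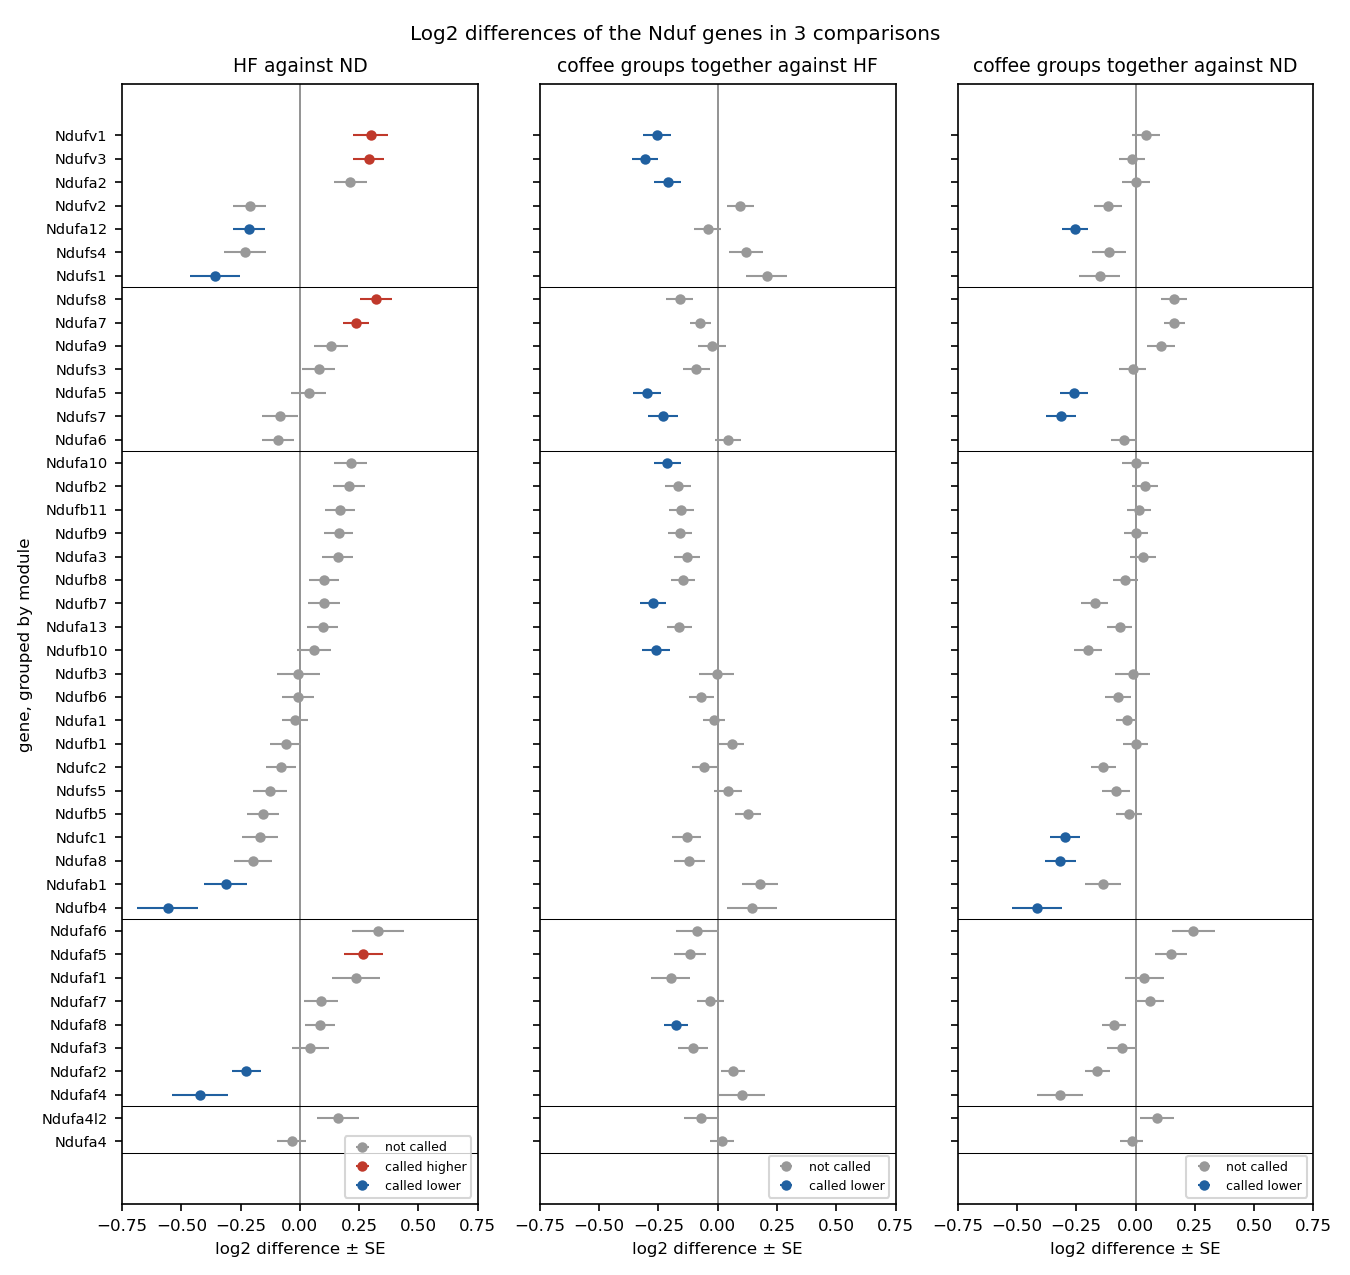
Points give the log2 difference of each Nduf gene with its SE in HF against ND (left), in the coffee groups together against HF (middle) and in the coffee groups together against ND (right), with called genes in red or blue and modules separated by lines. In the middle panel all 9 called genes lie below 0, and in the right panel the 6 called genes also lie below 0.

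The second comparison asked what coffee did under the high-fat diet, first with the 3 coffee groups together against HF. Subunit genes of all 3 modules were lower in the coffee groups. The 8 called subunits were Ndufv3, Ndufa5, Ndufb7, Ndufb10, Ndufv1, Ndufs7, Ndufa10 and Ndufa2, with log2 differences between -0.31 and -0.21, and none was called higher. These 8 of 34 (23.5%) compare with 10.3% of all genes called, 6.88% lower and 3.39% higher. Of the 34 subunits, 25 had a log2 difference below 0, as did 47.8% of all genes, and their median was -0.11 against 0.01 over all genes. Among genes at or above the median level, 14 of 33 subunits were called beside 24.2% of all such genes. At that level the median log2 difference was -0.12 over the subunits and -0.04 over all such genes.

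**Figure D3:**
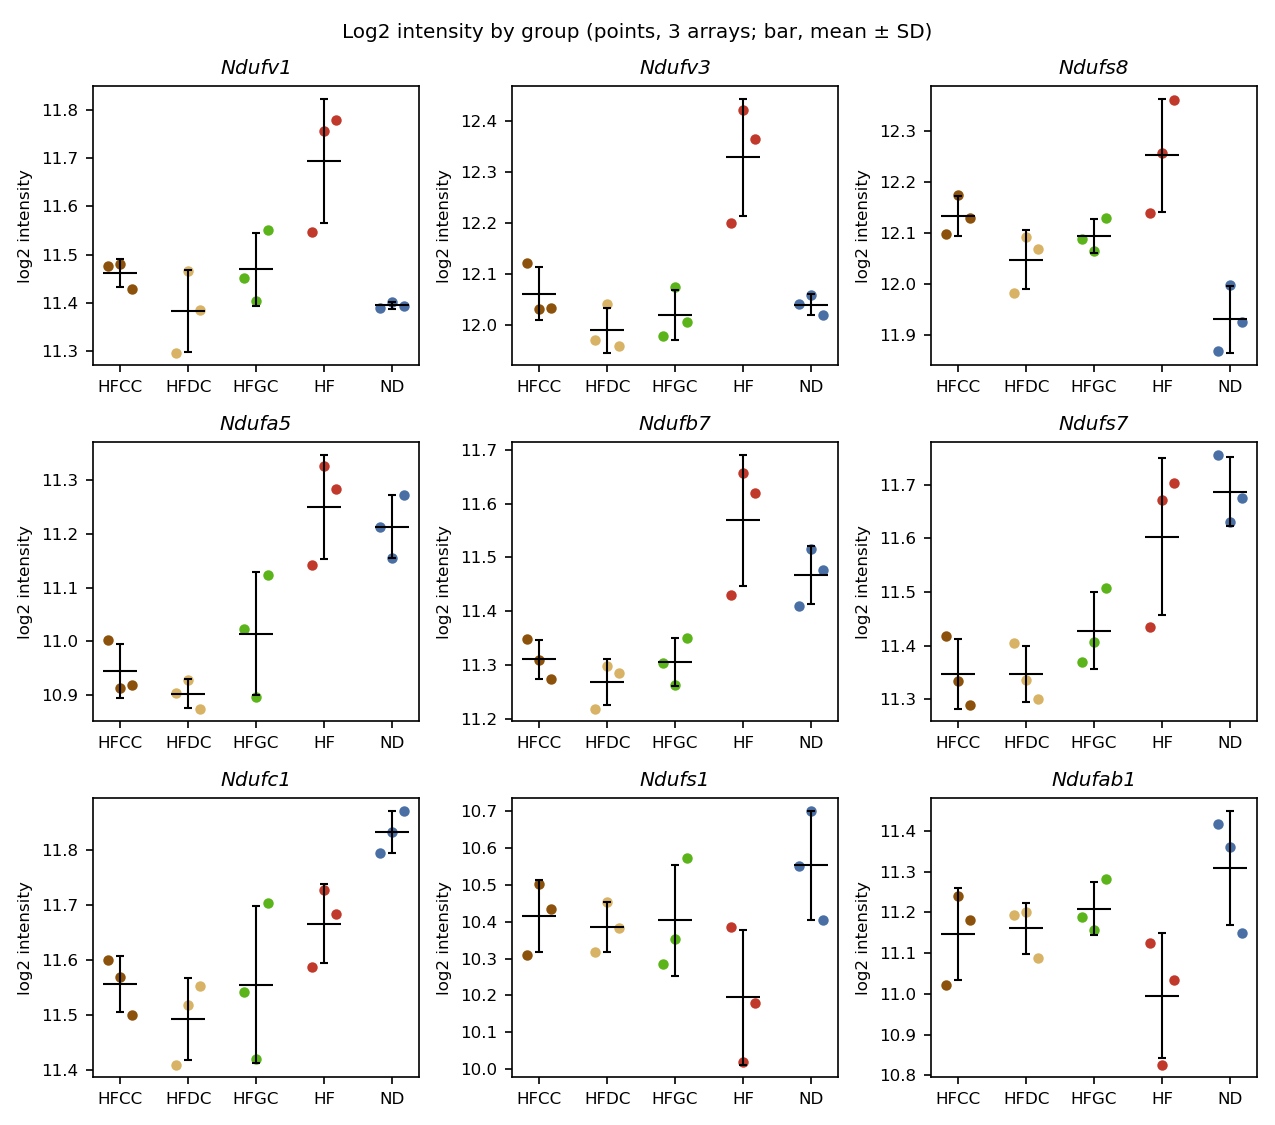
Each panel gives the log2 intensity of 1 gene on the 15 arrays by group (points), with the mean and SD of the 3 arrays of a group (bar), on axes that do not start at 0 and differ between panels. Ndufv1 and Ndufv3 have their highest mean in HF, Ndufs7 and Ndufc1 are lower in the coffee groups than in ND, and Ndufs1 and Ndufab1 have their lowest mean in HF.

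In the N module, Ndufv3 had the largest difference of the subunits. It read 12.12, 12.03 and 12.03 in HFCC livers, 11.97, 12.04 and 11.96 in HFDC livers and 11.98, 12.07 and 12.01 in HFGC livers, against 12.20, 12.42 and 12.36 in HF livers. All 9 coffee arrays lay below the 3 HF arrays (groups did not overlap in 8.31% of all genes), with a log2 difference of -0.31 ± 0.05 (adjusted p = 0.0084, limma). Ndufv1 read 11.48, 11.48 and 11.43 in HFCC livers, 11.30, 11.47 and 11.39 in HFDC livers and 11.45, 11.40 and 11.55 in HFGC livers, against 11.55, 11.76 and 11.78 in HF livers. Only the highest HFGC array reached the lowest HF array. The difference on the log2 scale was -0.26 ± 0.06 (adjusted p = 0.018, limma).

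Ndufv1 and Ndufv3 were the only members called both in HF against ND and in the coffee groups against HF. The comparisons share the HF arrays, so the opposite signs are not independent of each other. Ndufa2, an accessory subunit with a thioredoxin-like fold, ranged over the coffee arrays between 10.94 and 11.12, against 11.09, 11.36 and 11.32 in HF livers. Only HF replicate 1 lay within the range of the coffee arrays, and the log2 difference was -0.21 ± 0.06 (adjusted p = 0.033, limma). Ndufs1, Ndufs4 and Ndufv2, whose differences in HF against ND were below 0, had log2 differences of 0.21, 0.12 and 0.09 here and were not called. For Ndufv2 and Ndufs4 the sign depended on the probe set. Here the other sets of Ndufv2 gave -0.11 and -0.13, and those of Ndufs4 gave 0.08, -0.15 and, at a dim level, -0.03.

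In the Q module, Ndufa5 and Ndufs7 were called. Ndufa5, an accessory subunit, read 11.00, 10.91 and 10.92 in HFCC livers, 10.90, 10.93 and 10.87 in HFDC livers and 11.02, 10.90 and 11.12 in HFGC livers, against 11.14, 11.33 and 11.28 in HF livers. No coffee array reached the HF arrays, although the highest HFGC array came close to the lowest HF array. This gave a log2 difference of -0.30 ± 0.06 (adjusted p = 0.011, limma). Ndufs7 carries the last iron-sulfur cluster before ubiquinone. It read 11.42, 11.33 and 11.29 in HFCC livers, 11.40, 11.34 and 11.30 in HFDC livers and 11.37, 11.41 and 11.51 in HFGC livers, against 11.43, 11.67 and 11.70 in HF livers. HF replicate 1 lay among the coffee arrays, and the difference was -0.23 ± 0.06 (adjusted p = 0.034, limma). Ndufs8 and Ndufa7, both higher in HF than in ND, did not pass here, at -0.16 ± 0.06 and -0.07 ± 0.04. Ndufs3 did not pass either, at -0.09 ± 0.06 (adjusted p = 0.35, limma).

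In the membrane arm 3 of 20 members were called, and 15 of 20 had log2 differences below 0. Ndufb7 lies on the side that faces the intermembrane space. It ranged over the 9 coffee arrays between 11.22 and 11.35, against 11.43, 11.66 and 11.62 in HF livers. Ndufb10, a subunit on the same side, ranged between 10.91 and 11.06 on the coffee arrays, against 11.08, 11.31 and 11.30 in HF livers. In both genes all coffee arrays were below the HF arrays, with log2 differences of -0.27 ± 0.06 for Ndufb7 (adjusted p = 0.011, limma) and -0.26 ± 0.06 for Ndufb10 (adjusted p = 0.015, limma). Ndufa10 ranged between 11.44 and 11.67 on the coffee arrays, against 11.69, 11.82 and 11.85 in HF livers. Its groups were separated by a narrow gap and its log2 difference was -0.21 ± 0.06 (adjusted p = 0.030, limma). For the Ndufa10 protein, identified from a gel spot, the study reported the opposite direction, higher in HFDC and HFGC than in HF livers.

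One assembly factor of 8 was called in the coffee groups against HF (12.5%, where 10.3% of all genes were called). It was Ndufaf8, the partner of Ndufaf5, which ranged between 9.84 and 9.95 on the coffee arrays, against 9.98, 10.14 and 10.09 in HF livers. The coffee arrays were all below the HF arrays, and the log2 difference was -0.18 ± 0.05 (adjusted p = 0.040, limma). Ndufaf8 lost this call in 11 of 15 cases with 1 array left out. Its second probe set gave -0.12 and did not pass (adjusted p = 0.24 over all probe sets, limma). Ndufaf4 and Ndufaf2, lower in HF than in ND, had log2 differences of 0.10 and 0.07, and Ndufaf5 one of -0.12, and none of these was called. The Ndufa4 pair was not called, at 0.02 for Ndufa4 and -0.07 for Ndufa4l2.

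Tested singly against HF, the coffees gave different counts. HFDC against HF had 8 subunits called, all lower, where 5.02% of all genes were called and 3.7% called lower: Ndufa5, Ndufv3, Ndufv1, Ndufb10, Ndufb7, Ndufa10, Ndufa2 and Ndufb9. Ndufb9, which binds the acyl carrier protein Ndufab1, was called only in this comparison, with levels of 12.34, 12.49 and 12.38 in HFDC livers against 12.58, 12.67 and 12.72 in HF livers and a log2 difference of -0.25 ± 0.06 (adjusted p = 0.037, limma). With the mean of its probe sets Ndufb9 lost this call, as it did in 6 of 15 cases with 1 array left out. In the coffee groups together against HF, another bright probe set of Ndufb9 gave -0.06, beside -0.16 for the one used. HFCC against HF had 1, Ndufa5, at -0.31 ± 0.07 (adjusted p = 0.048, limma), where 1.64% of all genes were called and 1.26% called lower. HFGC against HF had 1, Ndufv3, at -0.31 ± 0.07 (adjusted p = 0.033, limma), where 3.09% of all genes were called and 2.31% called lower. In HFDC against HF 27 of 34 subunits were below 0, as were 46.2% of all genes. No assembly factor was called in any of these 3 comparisons. In HFDC against HF, 0 subunits were called without HF replicate 2, without HF replicate 3 or without any one HFDC array, and 15 without HF replicate 1 (11.6% of all genes). With the 3' minus 5' covariate 0 members were called in any of the 3 comparisons. Among genes at or above the median level, HFDC against HF called 15 subunits and 14.6% of all such genes. Their median log2 differences were -0.16 over the subunits and -0.04 over all such genes.

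The counts do not show that the coffees differed, and the direct comparisons called none of the 44 members. HFDC against HFCC called 0 of 34 subunits, with 2 at an unadjusted p under 0.05, where 0.0934% of all genes were called. The subunits nevertheless lay mostly on one side, with 29 of 34 below 0 and a median of -0.06, where 43.8% of all genes lay below 0. HFGC against HFDC called 0, with 2 at an unadjusted p under 0.05, where 0.0385% of all genes were called. Here 2 of 34 subunits were below 0, against 51.1% of all genes, and the median was 0.08. HFGC against HFCC called 0, as for all genes (0%), with 0 at an unadjusted p under 0.05 and a median of 0.01. In these 3 comparisons of coffees the 95% intervals of single subunits had a median half-width of 0.15 and reached as far as -0.46 and 0.39. They used the SE from limma with the 10 residual degrees of freedom only, without the extra ones behind the limma p-values. Over all subunits, the mean level of an array lay between 11.10 and 11.18 in HFDC livers, between 11.18 and 11.20 in HFCC livers and between 11.17 and 11.27 in HFGC livers.

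The subunits were more spread among the HF arrays than among the others. Their median SD was 0.10 in HF livers and between 0.05 and 0.06 in the other 4 groups, whereas over all genes it was 0.10 in HF livers and between 0.08 and 0.12 elsewhere. HF replicate 1 was the lowest HF array in 25 of 34 subunits and HF replicate 3 the highest in 23. Without HF replicate 2, 0 members were called in the coffee groups against HF and 4 genes of all 18193 were called. Without HF replicate 3, 0 members and 64 genes of all were called. Without HF replicate 1, 16 subunits and 2738 genes of all (15%) were called. In the fit with the 3' minus 5' covariate 0 members and 0 of all genes were called, with 6 subunits at an unadjusted p under 0.05, while the log2 differences were -0.26 for Ndufv1, -0.24 for Ndufa5 and -0.21 for Ndufv3.

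**Figure D4:**
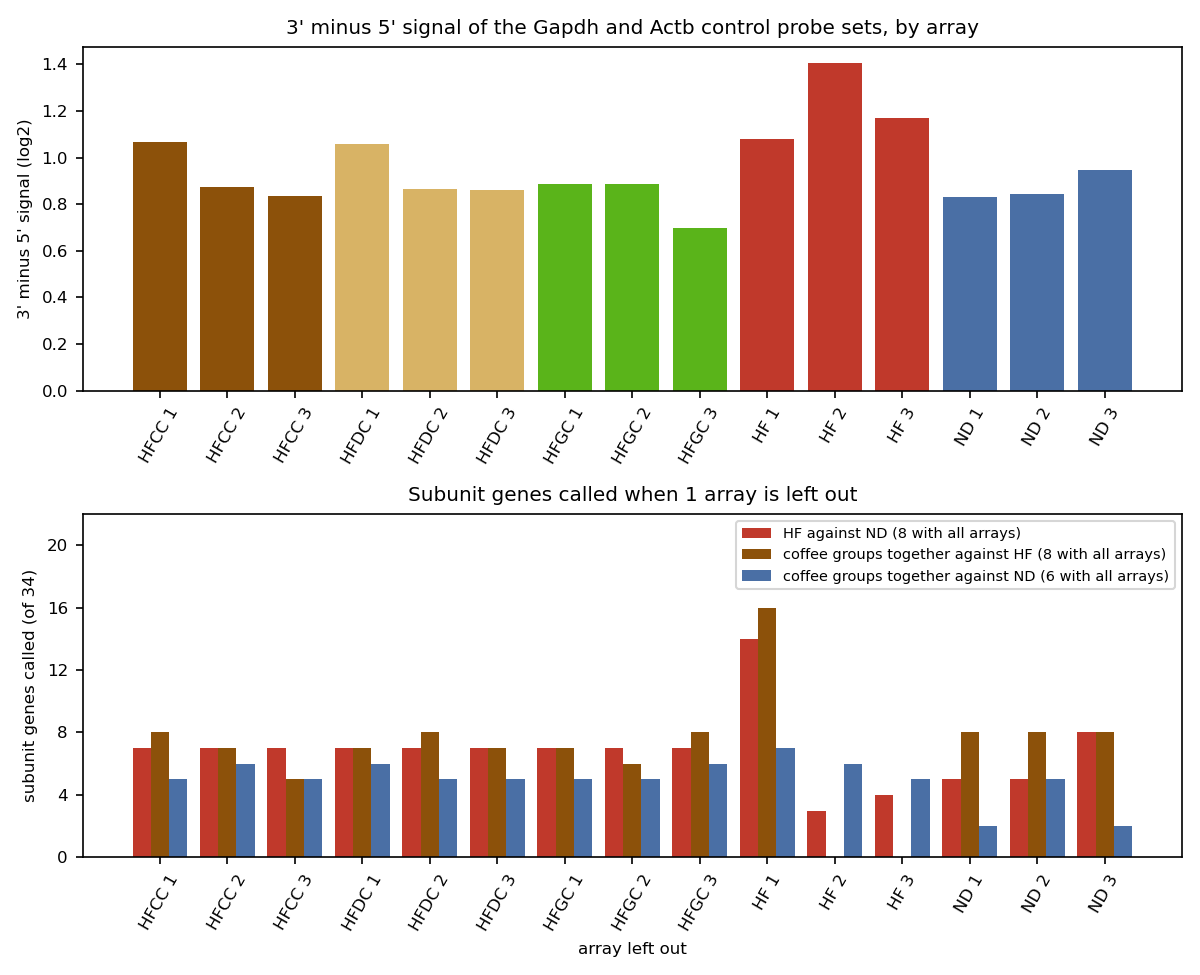
The upper panel gives the 3' minus 5' control signal of each array as bars, and the lower panel the number of 34 subunit genes called in 3 comparisons when the array on the axis is left out. The count for the coffee groups against HF is 0 without HF replicate 2 or 3 and 16 without HF replicate 1, whereas the count for the coffee groups against ND is 2 without ND replicate 1 or 3 and between 5 and 7 without any other array.

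Because the HF arrays were so influential, the coffee groups together were also set against ND, a comparison added after the data were seen that leaves the HF level out of the difference. The diets then differ in fat as well as in coffee. The subunits that passed were all lower with the high-fat diet and coffee. They numbered 6 of 34 (17.6%), where 4.09% of all genes were called, 1.73% lower and 2.36% higher. Of the 34, 24 were below 0, as were 48.2% of all genes, and among genes at or above the median level 7 of 33 subunits were called (6 lower) beside 7.6% of all such genes. The called genes were Ndufs7, Ndufa8, Ndufc1, Ndufa5, Ndufa12 and the dim Ndufb4. The 3' minus 5' values of the coffee groups and ND were similar, and in the fit with that covariate 6 subunits were called.

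Ndufs7 read between 11.29 and 11.51 on the coffee arrays, against 11.76, 11.63 and 11.67 in ND livers. All 9 coffee arrays were below the ND arrays (groups did not overlap in 5.49% of all genes), and the log2 difference was -0.31 ± 0.06 (adjusted p = 0.015, limma). Ndufc1, a small subunit that spans the membrane, read 11.60, 11.57 and 11.50 in HFCC livers, 11.41, 11.52 and 11.55 in HFDC livers and 11.54, 11.42 and 11.70 in HFGC livers, against 11.79, 11.83 and 11.87 in ND livers. Again no coffee array reached ND, and the difference was -0.30 ± 0.06 (adjusted p = 0.017, limma). In HF livers Ndufc1 read 11.59, 11.73 and 11.68, of which only replicate 2 exceeded every coffee array.

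Ndufa5 and Ndufa12 were also below ND on every coffee array, with log2 differences of -0.26 ± 0.06 (adjusted p = 0.024, limma) and -0.26 ± 0.05 (adjusted p = 0.018, limma). Ndufa12 ranged between 10.64 and 10.85 on the coffee arrays, against 11.05, 10.95 and 10.96 in ND livers. Ndufa8, a subunit of the membrane arm that faces the intermembrane space, ranged between 10.50 and 10.88, against 10.95, 10.88 and 10.97 in ND livers. Its groups touched at the highest HFGC array, and the log2 difference was -0.32 ± 0.07 (adjusted p = 0.016, limma). By the probe sets used, Ndufa5 and Ndufs7 were thus lower in the coffee groups than in both HF and ND. Against HF, Ndufs7 lost its call in 8 of 15 cases with 1 array left out, and Ndufa5 lost its call without HF replicate 2 or 3. By contrast, Ndufa12 was lower in HF and in the coffee groups than in ND. Ndufv1 and Ndufv3, at 0.04 and -0.02, were not called against ND. Ndufa7 lay above ND on all 9 coffee arrays but missed the threshold at 0.16 ± 0.04 (adjusted p = 0.054, limma). No assembly factor was called against ND, where Ndufaf4 had a log2 difference of -0.32 ± 0.10 (adjusted p = 0.082, limma).

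These calls rested in turn on the ND arrays. Without ND replicate 1, 2 subunits and 1.82% of all genes were called, and without ND replicate 3, 2 subunits and 2.24% of all genes. With 1 array left out, Ndufc1 lost its call only without ND replicate 3 (adjusted p = 0.066, limma), and Ndufs7 and Ndufa12 only without ND replicate 1 (adjusted p = 0.070 and 0.087, limma). With the mean of its probe sets, 1 of them dim, Ndufa12 also lost the call (-0.13, adjusted p = 0.19, limma). Ndufa5 and Ndufa8 lost theirs without either of these arrays, and Ndufb4 in 9 of the 15 cases.

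Several genes were represented by more than one probe set, which allowed a check within the array. Of 22 genes with several probe sets, all sets had the same sign in 13 for HF against ND and in 15 for the coffee groups against HF. In HF against ND the 6 probe sets of Ndufs8 had log2 differences of 0.18 to 0.32, and the 3 of Ndufv1 had 0.17 to 0.34. The 3 probe sets of Ndufv2 did not share a sign: the one used gave -0.21, and the others gave 0.14 and 0.09. For Ndufa5 the probe set used gave 0.04 in HF against ND, and its other probe set gave -0.22. In the coffee groups against ND, both probe sets of Ndufa5 were below 0, at -0.26 and -0.34, and so were both of Ndufs7, at -0.31 and -0.21. The second set of Ndufs7 did not pass (adjusted p = 0.064 over all probe sets, limma). The second probe set of Ndufc1 gave -0.095 there and did not pass. The 3 bright probe sets of Ndufa12 gave -0.26, -0.26 and -0.26, and a dim one gave 0.24. In the coffee groups against HF, the second sets of Ndufa5 and Ndufs7 gave -0.13 and -0.15. Neither passed (adjusted p = 0.21 and 0.14 over all probe sets, limma).

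**Figure D5:**
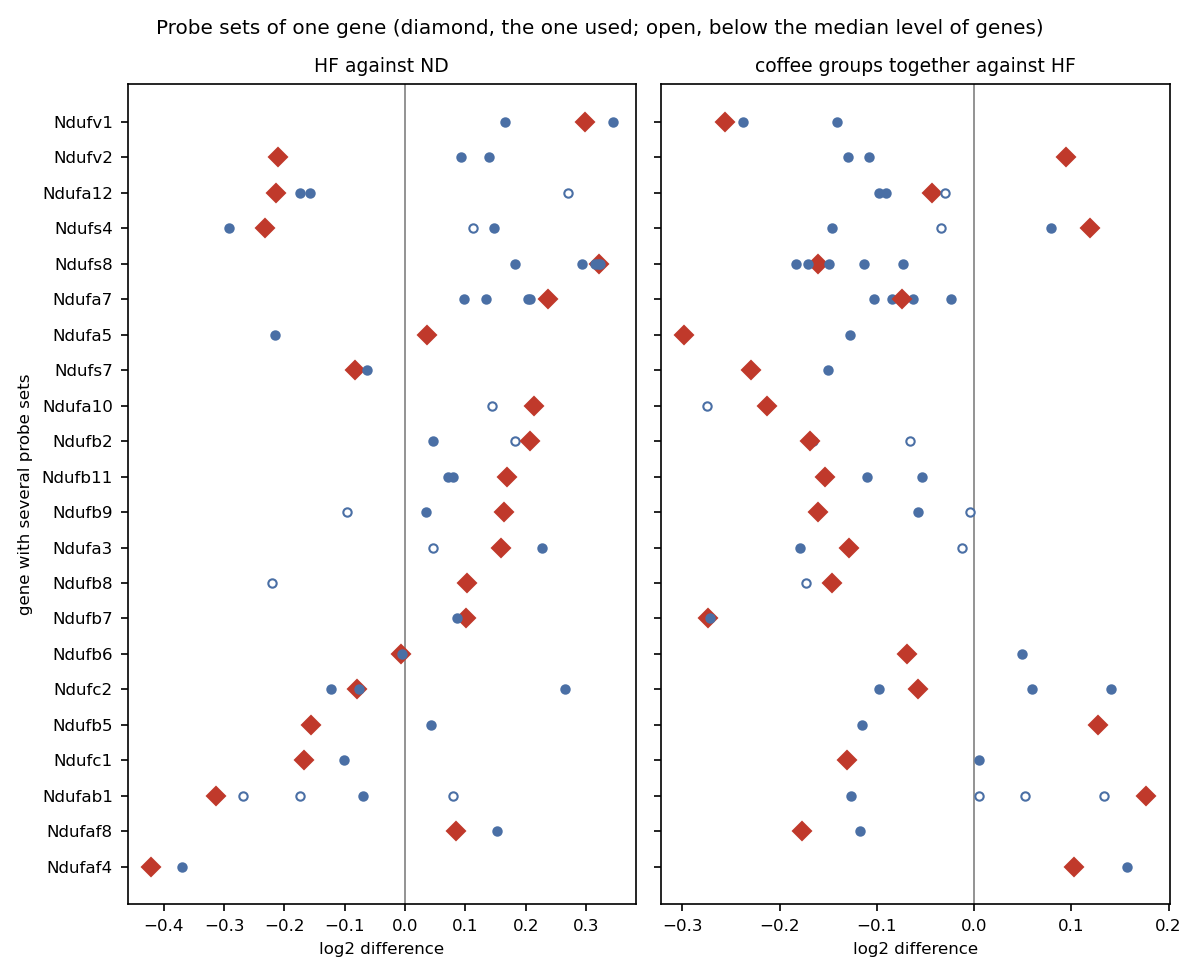
Each row is 1 of the 22 Nduf genes with several probe sets, and each point is the log2 difference of 1 probe set in HF against ND (left) and in the coffee groups together against HF (right), with a diamond for the probe set used and open symbols for sets below the median level of all genes. The sets of Ndufs8 and Ndufa7 lie on one side of 0 in both panels, whereas those of Ndufv2, Ndufs4 and Ndufb5 fall on both sides.

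Of the mitochondrial-DNA-coded subunits, 1 probe set with the symbol ND5 was measured, a proton-pumping subunit of the membrane arm. It read 13.64, 13.79 and 13.85 in HFCC livers, 13.76, 13.80 and 13.76 in HFDC livers and 13.75, 13.67 and 13.66 in HFGC livers, against 13.68, 13.28 and 13.45 in HF livers. It was higher in the coffee groups by 0.27 ± 0.07 on the log2 scale (adjusted p = 0.031, limma). The groups overlapped at HF replicate 1. In HF against ND, which read 13.75, 13.87 and 13.85, the log2 difference was -0.35 ± 0.09 (adjusted p = 0.019, limma). HF replicate 2, the array with the highest 3' minus 5' value, was the lowest of the 15. With the 3' minus 5' covariate the differences were 0.09 in the coffee groups against HF and -0.16 in HF against ND, and neither was called, nor was either without HF replicate 2 or 3.

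Of 11 measured assembly genes of complex I with other names, 2 were called in HF against ND (18.2%, where 13.5% of all genes were called). Nubpl, which helps to load iron-sulfur clusters, was higher by 0.55 ± 0.10 (adjusted p = 0.0044, limma), and Tmem70, which takes part in assembly in the inner membrane, was lower, at -0.47 ± 0.15 (adjusted p = 0.046, limma). With the 3' minus 5' covariate they were at 0.67 and -0.07 and were not called. Nubpl kept its call whichever array was left out, and Tmem70 lost it in 11 of 15 cases. In the coffee groups against HF 1 was called (9.09%, where 10.3% of all genes were called). It was Ecsit, which acts with Ndufaf1, at -0.23 ± 0.06 (adjusted p = 0.024, limma), and it was not called with the covariate, at -0.21, or without HF replicate 2 or 3. Against ND, Nubpl was higher in the coffee groups by 0.39 ± 0.08 (adjusted p = 0.016, limma), and it was the only one called. It lost that call without ND replicate 1 or 3.

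Among 7 regulators of respiratory genes, 0 were called in HF against ND, where 13.5% of all genes were called. In the coffee groups against HF 2 were called (28.6%, where 10.3% of all genes were called). Gabpa, which encodes the DNA-binding part of GABP, was higher by 0.35 ± 0.10 (adjusted p = 0.040, limma), and Ppargc1b, a coactivator of mitochondrial genes, was lower, at -0.51 ± 0.10 (adjusted p = 0.0093, limma). Against HF singly, Ppargc1b was at -0.66 in HFCC (adjusted p = 0.033, limma), -0.17 in HFDC (adjusted p = 0.42, limma) and -0.70 in HFGC (adjusted p = 0.016, limma). Gabpa was at 0.31 in HFCC, 0.48 in HFDC and 0.27 in HFGC, and was called only in HFDC (adjusted p = 0.040, limma). Between coffees, Ppargc1b differed by 0.49 ± 0.12 in HFDC against HFCC (adjusted p = 0.16, limma) and by -0.53 ± 0.12 in HFGC against HFDC (adjusted p = 0.19, limma), and none of the 7 regulators was called. With the 3' minus 5' covariate Gabpa was at 0.0020 and Ppargc1b at -0.55 in the coffee groups together against HF, neither called, and without HF replicate 2 or 3 neither was called. Nrf1, Yy1, Esrra, Ppargc1a and Tfam did not pass, with log2 differences between -0.22 and 0.17. None of the 7 was called in the coffee groups against ND, where 4.09% of all genes were called.

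Markers of other liver cells were examined beside these results. In HF against ND, 1 of 5 stellate cell markers, 1 of 5 endothelial markers and 1 of 2 red cell markers were called higher, and none of the Kupffer cell, cholangiocyte, lymphocyte and adipocyte markers. Over all genes, 8.92% were called higher in that comparison. In the coffee groups against HF, 1 of 5 endothelial markers was called lower and no other marker was called, where 6.88% of all genes were called lower. In the coffee groups against ND none was called, where 4.09% of all genes were called. Summed intensities of the stellate list lay between 3073 and 4063 in HF and between 2887 and 3283 in ND, those of the endothelial list between 2133 and 2336 in HF and between 1737 and 2523 in ND, and those of the red cell list between 990 and 1272 in HF and between 813 and 940 in ND. The summed intensity of the 6 hepatocyte markers lay between 126781 and 134606 on every array of the 4 high-fat groups and between 127363 and 133709 in ND. The part of cell composition in the differences of the Nduf genes was not tested.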

How the data were processed

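Liver RNA of 15 mice was measured on 15 arrays. Per the labels, the authors prepared biotin-labelled cRNA and ran RMA, a method that removes background, equalises arrays and combines the probes of a set. What they deposited is linear intensity. For RMA, software and version were not given in the sources used here. Nothing was renormalized, and log2 of each deposited intensity was taken before any test. Columns of single samples left unmapped numbered 0.

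Of 45101 probe sets, 64 were controls. The platform's annotation gave 34945 probe sets 1 symbol and 932 several. Of those with 1 symbol, 34741 were matched by gene ID to RefSeq (GRCm38.p6). Each gene was represented by its probe set with the highest mean, and by one that can bind several transcripts (ending in _x_at) only where it had no other. Levels of different genes are not comparable, since probe sets differ in affinity.

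Testing used limma 3.58.1 (R 4.3.3) with 1 model of 5 group means with 10 residual degrees of freedom. P-values were adjusted over all 18193 genes by the Benjamini-Hochberg method. Group and replicate came from the labels. An exact permutation test of 3 against 3 arrays cannot give a two-sided p below 0.1, so none was used. The members, lists and modules were chosen with earlier results of these data known. Single-array values of the groups compared, or their range over the coffee arrays, were given for members picked by a rule. These were up to 8 called in HF against ND, up to 8 called with coffee and up to 4 called assembly factors. Ndufs3 and Ndufa10, which the study names, were given as well. Ndufa7, Ndufs7, Ndufc1, Ndufa8, Ndufa12 and ND5 were added to these after their values were seen.

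In 10 simulated data sets per size with 200 changed genes of 18193, HF against ND recovered on average 11.6% of 1.25-fold, 80.6% of 1.5-fold and 97.3% of 2-fold changes. The coffee groups together against HF recovered 43.2%, 91.1% and 98.0%. In the data many more genes were called, 2465 in HF against ND and 1868 in the coffee groups against HF. The simulated noise was also independent between genes, so the recovered shares need not hold for these arrays. The alternatives were the mean of a gene's probe sets, a filter at the median level, cyclic loess, an offset of 32, a fit without the other groups, a replicate block, eBayes with trend and robust, a 3' minus 5' covariate and leaving out each array. Protein and metabolite measurements were not analysed here.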

Additional observations from a re-analysis of the deposited data

How the results depend on the processing

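The counts of called genes depended strongly on the setting, and no subunit or assembly factor was called between coffee groups under any of them (0 throughout). For subunits in HF against ND the count of 8 was 14 with an offset of 32, 0 with the compared groups alone, 5 with the replicate block, 0 with the 3' minus 5' covariate, and between 3 and 14 when 1 array was left out. For assembly factors in that comparison the count of 3 was 0 with the groups alone, 0 with the covariate, and between 0 and 3 with 1 array left out. For HFCC against HF the count of 1 was 0 with averaged probe sets, cyclic loess, the groups alone, the block or the covariate, 4 for genes at or above the median level or with the offset, 2 with trend and robust, and between 0 and 8 with 1 array left out. For HFDC against HF the count of 8 was 15 for genes at or above the median level or with the offset, 1 with cyclic loess, 0 with the groups alone or the covariate, and between 0 and 15 with 1 array left out. For HFGC against HF the count of 1 was 3 for genes at or above the median level or with the offset, 2 with trend and robust, 0 with the groups alone or the covariate, and between 0 and 9 with 1 array left out. For the coffee groups together against HF the count of 8 was 14 for genes at or above the median level or with the offset, 5 with cyclic loess, 0 with the covariate, and between 0 and 16 with 1 array left out. Its single assembly factor was lost with cyclic loess, the block and the covariate (0 each), and the count lay between 0 and 1 with 1 array left out. For the coffee groups against ND, added after the data were seen, the count of 6 lay between 6 and 7 under the other settings and between 2 and 7 with 1 array left out. The compared groups alone leave fewer arrays to estimate the spread, and for the rest the cause was not tested.

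The sources used here do not say that the replicate numbers mark a block. Arrays with the same number had deviations correlated at a median of 0.06 (from -0.28 up to 0.23). Arrays with different numbers had a median of -0.03 (from -0.22 up to 0.31), and 6 of 15 arrays correlated best with their own number. With that number as a block, the subunit counts were 5 in HF against ND, 0, 7 and 1 in HFCC, HFDC and HFGC against HF, and 7 and 6 for the coffee groups together against HF and against ND.

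Among recomputed log2 differences of named genes, 1114 kept direction and stayed as they were, either called or not called. Genes called in neither fit are thus part of the 1114. Another 234 kept direction and lost the call, 19 gained it and 10 changed sign, none of them called. In HF against ND, Ndufa5 was -0.089 with averaged probe sets and -0.024 with the covariate, and lay between -0.00097 (without HF replicate 2) and 0.092 with 1 array left out. Ndufs7 lay between -0.13 and 0.00074 (without HF replicate 1). In the coffee groups against HF, the covariate gave -0.049 for Ndufaf4, -0.11 for Ndufs1, -0.052 for Ndufab1 and -0.018 for Ndufaf2. With 1 array left out, Ndufaf4 lay between -0.017 (without HF replicate 2) and 0.20, and Ndufa12 between -0.076 and 0.015 (without HF replicate 3).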
